A study of Mus musculus with 8 samples.

Results

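The genes described here sense viral RNA in the cell or answer to interferon. The set is Tlr3, Ddx58, Ifih1, Mavs, Irf3, Irf7, Ifit1, Ifit3 and Isg15, taken by gene name from the deposited gene count table. All 9 names were found among its 29880 genes. In the mm9 build of the table, Ddx58 lies at chr4:40150806-40186861 (minus strand), Tlr3 at chr8:46481019-46495962 (minus strand) and Irf3 at chr7:52253018-52258218 (plus strand). Ifit3 and Ifit1 are neighbours on chromosome 19, at chr19:34658021-34663221 and chr19:34715361-34724499 (both plus strand). They were described in 4 groups of 2 libraries each, from total RNA of H3f3b KO and WT mouse testis cells, in the order KO post-meiotic, WT post-meiotic, KO meiotic and WT meiotic. The KO genotype is labelled H3.3BKO/KO :Actin Cre WT and the WT genotype H3.3BWT/WT :Actin Cre WT, so both are given as WT for Actin Cre. H3f3b is one of the genes for histone H3.3, and the KO allele was made from a floxed, epitope-tagged allele by removal of its coding exons with Cre. All mice were C57BL/6 males of 3 to 6 months. The labels give the seminiferous tubules of 1 mouse as the source of RNA. Per the study's methods the fractions were separated by sedimentation and pooled, with round spermatids as the main post-meiotic cell. Other testis cells were not sorted out.

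Double-stranded RNA is the usual mark of a viral infection. TLR3 detects it in endosomes, and the helicases RIG-I (gene Ddx58) and MDA5 (gene Ifih1) detect it in the cytosol and signal through MAVS on mitochondria. The transcription factors IRF3 and IRF7 then switch on interferon genes, and secreted interferon induces Ifit1, Ifit3, Isg15 and many other genes. Transcripts of the cell's own retroelements can form ligands of the same sensors, and for that reason the members were set beside the repeat families of the same libraries.

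Many targets of interferon carry in their promoters the interferon-stimulated response element, bound by IRF complexes. Its core was searched as GAAANNGAAA on both strands in the RefSeq promoters of build GRCm38.p6, each 250 bases before to 50 bases after the gene start. All 9 members had a promoter there. The core was found in 5 of them, and in 1126 of 32817 promoters in the table (3.43%). Among further genes of the pathway it was in 20 of 41 promoters of interferon-stimulated genes and 12 of 27 of interferons and receptors. It was in 1 of 16 promoters of other sensors, 1 of 20 of adaptors and kinases and 2 of 14 of transcription factors. The stretches of the 3 interferon-stimulated members are shown because each holds more than 1 core. They run 5′ to 3′ on the strand of the gene, with the core in capitals where it was found on either strand. The copies of Isg15 overlap each other.
Isg15 (chr4:156200850-156200921, minus strand): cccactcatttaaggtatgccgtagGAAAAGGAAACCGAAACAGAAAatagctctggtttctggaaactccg
Ifit1 (chr19:34640760-34640838, plus strand): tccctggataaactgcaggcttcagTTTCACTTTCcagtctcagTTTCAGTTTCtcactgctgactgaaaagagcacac
Ifit3 (chr19:34583348-34583441, plus strand): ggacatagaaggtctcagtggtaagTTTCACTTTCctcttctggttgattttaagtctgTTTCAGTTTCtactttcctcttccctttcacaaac

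The other 2 members with a core were sensors. Ddx58 held TTTCGATTTC, from 2 bases after the start, and Ifih1 held GAAACAGAAA, from 32 bases after the start. No core was found in the windows of Tlr3, Mavs, Irf3 and Irf7. A match is a description of the letters and not of binding.

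Gene counts per library were 57853283 to 92836630 and repeat counts 8995050 to 18865521. Levels are given in counts per 1000000 counts of the library (CPM), scaled by edgeR's TMM method, and differences as log2 fold change ± standard error from edgeR's quasi-likelihood test over all 8 libraries. Genes are called at a Benjamini-Hochberg adjusted p under 0.01 over the 20412 genes tested. H3f3b reads were 407 and 442 in KO post-meiotic libraries, against 14727 and 12130 in WT post-meiotic ones, and 621 and 1107 in KO meiotic libraries, against 36885 and 32641 in WT meiotic ones and the libraries matched their labels in this. All 12 markers of round and elongating spermatids were called higher in the post-meiotic fraction of both genotypes. Of 12 meiotic prophase markers, 9 were called lower and 2 higher there, also in both genotypes. Markers of 25 leukocyte genes were also present, and their summed level was 860 to 886 CPM in KO post-meiotic, 759 to 776 in WT post-meiotic, 315 to 349 in KO meiotic and 295 to 329 CPM in WT meiotic libraries. Aif1, singled out after its values were seen, gave most of that sum, at 677 to 678 CPM in KO post-meiotic, 651 to 669 in WT post-meiotic, 272 to 297 in KO meiotic and 268 to 302 CPM in WT meiotic libraries. The other 24 markers summed to 182 to 209 CPM in KO post-meiotic, 107 in both WT post-meiotic, 43.2 to 51.4 in KO meiotic and 27.2 CPM in both WT meiotic libraries. Only Cxcr6 among them was at 0 in both libraries of a group, WT meiotic. In bulk RNA, fewer cells of a type and less RNA per cell cannot be told apart.

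The members spanned a wide range of level. Compared as RPKM, which divides the CPM by the exon length in kilobases, Irf3 stood first in all 4 groups, with 5.86 to 6.37 RPKM in KO post-meiotic, 5.06 to 5.11 in WT post-meiotic, 21.3 to 22.7 in KO meiotic and 21.9 to 23.4 RPKM in WT meiotic libraries. Mavs and then Ddx58 followed in each group, without overlap of their libraries. They were closest in WT meiotic cells, where Mavs had 1.12 to 1.26 and Ddx58 1.08 to 1.10 RPKM. The remaining 6 members lay between 0.0353 and 0.309 RPKM in any library, and their order changed between groups. Isg15 had 3 to 12 reads in any library and was not tested. In the plot of all libraries the member levels and their spread can be read for each group.

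**Figure D1:**
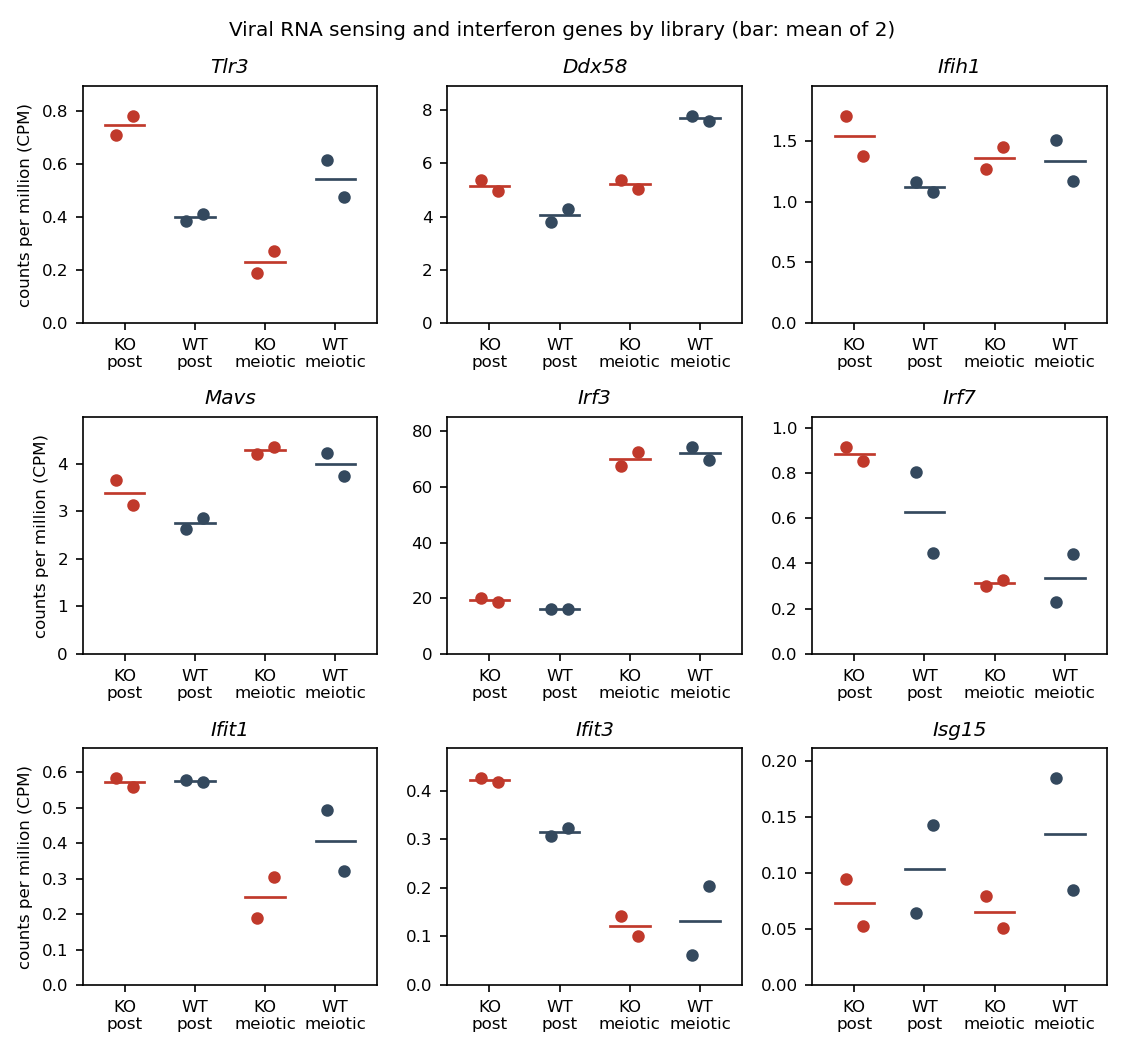
Level of each of the 9 members, in CPM (vertical axis from 0), in the 8 libraries. Each point is 1 library and the bar is the mean of 2; the 2 KO meiotic libraries of Ddx58 lie at 5.39 and 5.05 CPM, below the 2 WT meiotic libraries at 7.79 and 7.60.

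Ddx58, the RIG-I helicase, was lower in KO than in WT meiotic cells. Its level was 5.39 and 5.05 CPM in KO meiotic libraries, against 7.79 and 7.60 CPM in WT meiotic libraries. The groups did not overlap, and the log2 change was −0.56 ± 0.10 (edgeR adjusted p = 0.000386), a fold of 0.677. In post-meiotic cells it was 5.36 and 4.95 CPM in KO libraries, against 3.78 and 4.30 CPM in WT libraries, a log2 difference of 0.35 ± 0.11 that was not called (edgeR adjusted p = 0.0195). The difference between the KO effects in the fractions, post-meiotic minus meiotic, was itself called, at 0.92 ± 0.15 (edgeR adjusted p = 0.00159). It was not called without KO post-meiotic replicate 1 (0.83, edgeR adjusted p = 0.0284), WT meiotic replicate 1 (0.90, 0.010) or WT post-meiotic replicate 1 (0.80, 0.0106).

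Tlr3, the endosomal sensor, had 12 to 45 reads in a library and stood apart in the same way. It had 0.190 and 0.274 CPM in KO meiotic libraries, against 0.616 and 0.475 CPM in WT meiotic libraries, and the groups did not overlap. The log2 change was −1.19 ± 0.31 (edgeR adjusted p = 0.00614), the only member called beyond a log2 of 1 between genotypes. In post-meiotic cells it had 0.711 and 0.784 CPM in KO libraries, against 0.386 and 0.412 CPM in WT libraries, a log2 difference of 0.90 ± 0.28 (edgeR adjusted p = 0.0162, not called). The difference of the effects was 2.09 ± 0.41 (edgeR adjusted p = 0.00491). The meiotic call was lost without KO meiotic replicate 1 (−0.996, adjusted p = 0.0419), KO meiotic replicate 2 (−1.53, 0.0153), KO post-meiotic replicate 1 (−1.18, 0.0105) or 2 (−1.18, 0.0107), and WT meiotic replicate 1 (−0.99, 0.0781) or 2 (−1.37, 0.0102). It was also lost with DESeq2 (−1.23, adjusted p = 0.0429) and in a fit of only the 4 libraries compared (−1.19, 0.0157). With library totals the post-meiotic difference was called (1.0, adjusted p = 0.00869). The call on the difference was lost without KO meiotic replicate 1 (1.90, adjusted p = 0.0138), KO post-meiotic replicate 1 (2.13, 0.0291) or 2 (2.01, 0.0220), WT meiotic replicate 1 (1.89, 0.0367), and WT post-meiotic replicate 1 (2.01, 0.0154) or 2 (2.12, 0.0193), and DESeq2 gave no adjusted p for it.

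Ifih1, the MDA5 helicase, had 1.71 and 1.38 CPM in KO post-meiotic libraries, against 1.16 and 1.08 CPM in WT post-meiotic libraries. These did not overlap, but the log2 difference of 0.47 ± 0.20 was not called (edgeR adjusted p = 0.0719). In meiotic cells the KO and WT libraries overlapped and the 95% interval of the log2 difference was −0.37 to 0.42. Mavs, the adaptor of both helicases, had 3.65 and 3.14 CPM in KO post-meiotic libraries, against 2.62 and 2.87 CPM in WT ones, with a log2 difference of 0.31 ± 0.14 (edgeR adjusted p = 0.0801). Its interval in meiotic cells was −0.15 to 0.36.

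Irf3 was the only member called higher in KO than in WT post-meiotic cells. It had 20.3 and 18.7 CPM in KO libraries, against 16.1 and 16.3 CPM in WT libraries, a log2 change of 0.27 ± 0.07 (edgeR adjusted p = 0.00434) and a fold of 1.20. In meiotic cells it had 67.7 and 72.4 CPM in KO libraries, against 74.5 and 69.7 CPM in WT libraries, which overlapped, with an interval of the log2 difference of −0.16 to 0.08. The post-meiotic call was lost with RLE scaling (0.22, adjusted p = 0.0150), with DESeq2 (0.22, 0.0250) and without KO post-meiotic replicate 1 (0.18, 0.121), WT post-meiotic replicate 1 (0.24, 0.0503) or WT post-meiotic replicate 2 (0.26, 0.0329). The exons of Irf3 overlap those of Bcl2l12 on the opposite strand, and the strand setting of the counting is not given in the sources used here. Bcl2l12 had a log2 difference of −0.14 ± 0.07 in post-meiotic cells (edgeR adjusted p = 0.119).

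Irf7, the interferon-inducible partner of IRF3, had 0.916 and 0.854 CPM in KO post-meiotic libraries, against 0.805 and 0.448 CPM in WT ones, and its log2 difference was 0.48 ± 0.29 (edgeR adjusted p = 0.195). Ifit1, which binds viral RNA ends, had 0.585 and 0.558 CPM in KO post-meiotic libraries, against 0.579 and 0.573 CPM in WT ones, and the interval of the log2 difference was −0.61 to 0.59. In meiotic cells it had 0.190 and 0.304 CPM in KO, against 0.493 and 0.322 CPM in WT libraries (log2 −0.67 ± 0.33, edgeR adjusted p = 0.141). Ifit3, a partner of IFIT1, had 0.427 and 0.418 CPM in KO post-meiotic libraries, against 0.306 and 0.323 CPM in WT ones, with a log2 difference of 0.43 ± 0.37 (edgeR adjusted p = 0.388). Isg15, a ubiquitin-like modifier, had 6 and 3 reads in KO post-meiotic libraries, against 4 and 8 in WT ones, and 5 and 5 reads in KO meiotic libraries, against 12 and 5 in WT ones. In a fit with no minimum count its log2 difference was −0.45 ± 0.73 in post-meiotic (edgeR adjusted p = 0.738) and −1.09 ± 0.67 in meiotic cells (edgeR adjusted p = 0.296).

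Over the set, 1 of 8 tested members was called higher and 0 lower in KO post-meiotic cells, where 12.4% of all genes were called higher and 11.6% lower. At an unadjusted edgeR p under 0.05 there were 5 members and 46.4% of all genes, and DESeq2 called 0 members, with 2 at an unadjusted p under 0.05. In KO meiotic cells 0 were called higher and 2 lower, where 8.98% of all genes were called higher and 8.55% lower. At an unadjusted edgeR p under 0.05 there were also 2 members and 39.4% of all genes, and DESeq2 called 1, Ddx58. The median log2 difference of the 8 was 0.39 in post-meiotic and −0.10 in meiotic cells, beside 0.04 and 0.004 over all genes tested. The difference of the effects was called for 2 of 8, where 2.60% of all genes were called in either direction. At an unadjusted edgeR p under 0.05 there were 3 members and 24.1% of all genes. All 8 estimates were above 0, with a median of 0.56, beside a median of 0.003 over all genes. The post-meiotic difference was above 0 for 7 of 8 with TMM and RLE scaling, and for 8 of 8 with library totals only, which moved the median of all genes to 0.14. Of all genes called in post-meiotic cells 51.6% were higher with TMM, 40.3% with RLE, 77.2% with library totals and 34.2% with DESeq2; in meiotic cells these were 51.2%, 45.2%, 69.3% and 41.3%.

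**Figure D2:**
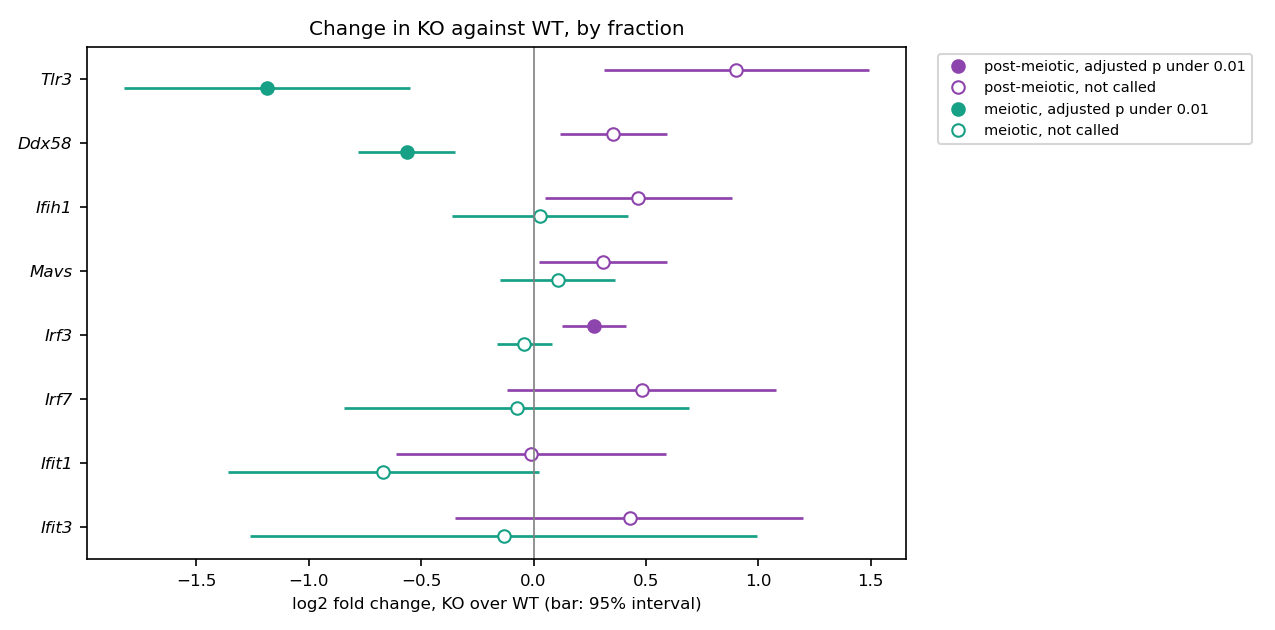
Log2 fold change of KO over WT for the 8 tested members (horizontal axis) in post-meiotic and in meiotic cells. Points are estimates with 95% intervals, and filled points are called; Tlr3 lies at 0.90 in post-meiotic and −1.19 in meiotic cells.

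Leukocyte markers also differed between KO and WT. In KO against WT cells 13 of 25 were called higher in the post-meiotic and 7 of 25 in the meiotic fraction, with median log2 differences of 0.81 and 0.80 and none called lower. Of the 8 tested members, as above, 1 was called higher and 0 lower in the post-meiotic fraction, and 0 higher and 2 lower in the meiotic fraction. Their log2 differences were above 0 for 7 and 2 of the 8, with medians of 0.39 and −0.10. Markers of peritubular myoid cells and fibroblasts were at 266 to 345 CPM in sum in KO post-meiotic libraries, against 137 to 178 CPM in WT post-meiotic ones, and 44.5 to 48.3 in KO meiotic, against 42.3 to 46.4 CPM in WT meiotic ones. Of these 12 markers, 5 were called higher and 0 lower in KO post-meiotic cells, and 1 higher and 2 lower in KO meiotic cells. Their median log2 differences were 0.475 and −0.262, and 11 and 5 of the 12 were above 0. Red blood cell markers were at 30.9 to 32.8 CPM in sum in KO post-meiotic libraries, against 11.3 to 11.9 CPM in WT post-meiotic ones, and at 2.35 to 2.90 in KO meiotic, against 2.36 to 2.51 CPM in WT meiotic ones. Leydig cell markers were at 52.9 to 54.8 CPM in KO post-meiotic, against 28.9 to 40.4 CPM in WT post-meiotic libraries, and at 184 to 279 CPM in KO meiotic, against 279 to 329 CPM in WT meiotic ones. Their log2 differences were above 0 for 10 of 10 markers in post-meiotic cells and for 0 of 10 in meiotic cells. Sertoli cell markers were at 130 to 131 CPM in KO post-meiotic, against 94.5 to 110 CPM in WT post-meiotic libraries. Endothelial markers ran the other way, at 56.6 to 57.7 CPM in KO post-meiotic, against 67.8 to 72 CPM in WT post-meiotic libraries. Their log2 differences were above 0 for 0 of 11 in each fraction, with 3 called lower in post-meiotic cells. In KO post-meiotic cells 7 of 12 meiotic prophase markers were called higher and 0 lower, and 0 of 12 spermatid markers higher and 3 lower. In KO meiotic cells these were 6 and 2, and 0 and 2. The part of these markers in the member values was not tested.

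Between the fractions, 5 members were called in KO and 3 in WT. Irf3 was lower in post-meiotic than in meiotic cells in both genotypes, with a log2 change of −1.85 ± 0.06 in KO (edgeR adjusted p = 2.28e-15) and −2.15 ± 0.07 in WT (edgeR adjusted p = 2.47e-16). Bcl2l12 on the opposite strand also fell, by 2.65 in KO and 2.69 in WT on the log2 scale. In WT cells Ddx58 was lower after meiosis (−0.93 ± 0.11, edgeR adjusted p = 1.99e-07), and Mavs (−0.54 ± 0.13, edgeR adjusted p = 0.00121). In KO cells Ddx58 had 5.36 and 4.95 CPM in post-meiotic, against 5.39 and 5.05 CPM in meiotic libraries, and its interval was −0.24 to 0.21. The Mavs call was lost without WT meiotic replicate 1 (−0.46, adjusted p = 0.0196) or WT post-meiotic replicate 1 (−0.47, 0.0208).

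In KO cells 4 members were called higher after meiosis. Tlr3 rose by 1.63 ± 0.29 (edgeR adjusted p = 4.52e-05), Irf7 by 1.49 ± 0.31 (0.000231), Ifit3 by 1.82 ± 0.42 (0.000704) and Ifit1 by 1.15 ± 0.31 (0.00298) on the log2 scale, and in each the KO post-meiotic libraries lay above both KO meiotic ones. In WT cells the differences were −0.46 ± 0.29 for Tlr3, 0.93 ± 0.34 for Irf7, 1.27 ± 0.47 for Ifit3 and 0.49 ± 0.30 for Ifit1, and none of these was called. Of these, only for Tlr3 was the gap between genotypes itself called, as given above. The Ifit1 call was lost with DESeq2 (1.16, adjusted p = 0.0325) and without KO meiotic replicate 1 (0.90, 0.0294), KO post-meiotic replicate 1 (1.08, 0.0269) or 2 (1.16, 0.0152), and the Ifit3 call with DESeq2 (1.80, 0.0151) and without KO meiotic replicate 2 (1.55, 0.0217). In WT cells Irf7 was called without WT meiotic replicate 2 (1.43, 0.00628) or WT post-meiotic replicate 2 (1.27, 0.00403), and Ifit3 without WT meiotic replicate 2 (2.30, 0.00372). In all, 4 of 8 members were higher and 1 lower in KO, where 29.5% of genes were called higher and 31.5% lower, and 0 higher and 3 lower in WT, where these were 29.6% and 32.4%. In KO 6 members and 72% of all genes had an unadjusted edgeR p under 0.05, and DESeq2 called Irf3, Irf7 and Tlr3. In WT 5 members, 2 of them higher, and 72.7% of all genes had an unadjusted edgeR p under 0.05, and DESeq2 called 3. Of the leukocyte markers, 22 of 25 were called higher after meiosis in KO and 21 of 25 in WT, and their part in the member values was not tested. Irf7 shares exons with Phrf1 on the opposite strand, which fell by 0.63 in KO and 0.52 in WT on the log2 scale, and Ifit3 has a near-identical copy, I830012O16Rik, with 7 to 24 reads in a library, so that unique alignment could leave out reads of either.

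**Figure D3:**
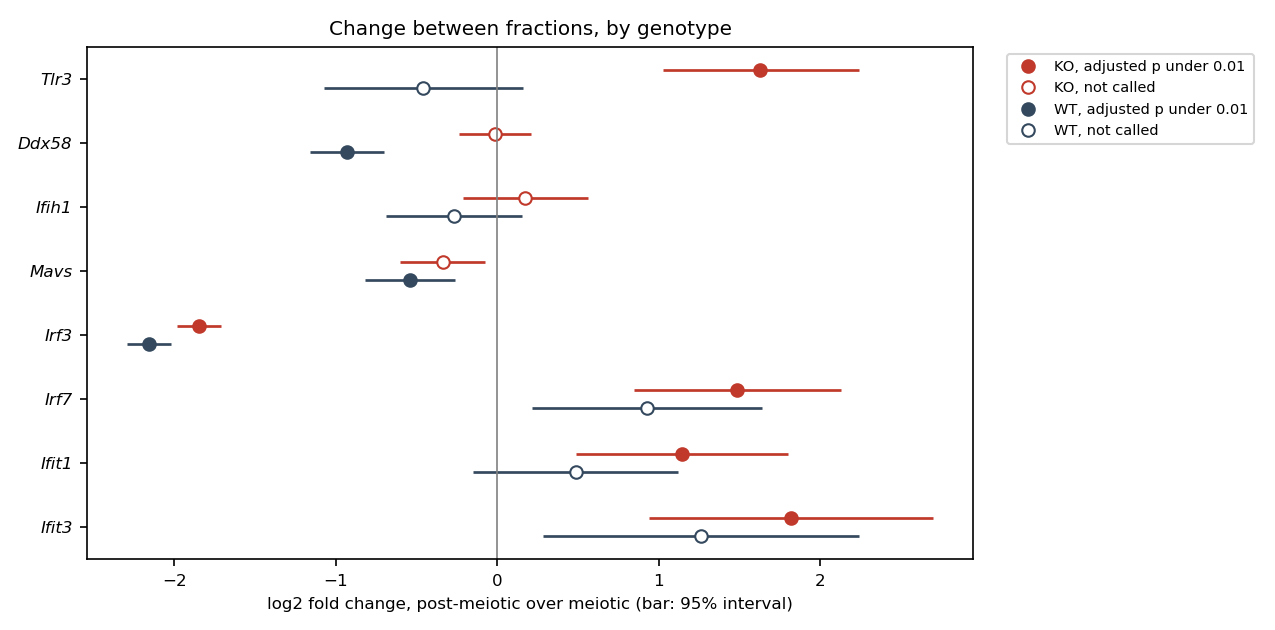
Log2 fold change of post-meiotic over meiotic cells for the 8 tested members (horizontal axis), in KO and in WT. Points are estimates with 95% intervals, and filled points are called; Irf3 lies at −1.85 in KO and −2.15 in WT, and Tlr3 at 1.63 in KO and −0.46 in WT.

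Around the members, 144 of 157 further genes of the pathway were in the table and 128 were tested. In KO post-meiotic cells 22 were called higher and 7 lower, with a median log2 difference of 0.27 beside 0.04 over all genes. In KO meiotic cells 12 were higher and 7 lower, with a median of −0.04 beside 0.004. Of all genes, as above, 12.4% were higher and 11.6% lower in post-meiotic and 8.98% and 8.55% in meiotic cells. With library totals 33 of the pathway genes were higher in post-meiotic and 16 in meiotic cells. The post-meiotic count of higher genes was 8 without KO post-meiotic replicate 1, 10 without WT post-meiotic replicate 2 and 13 with DESeq2, and the meiotic one was 7 without KO meiotic replicate 2 or WT meiotic replicate 1, and 8 without WT meiotic replicate 2 or with DESeq2. The interferon genes found in the table were near the limit of detection. Of 9 in the table none passed the filter on low counts, and the highest had 10 reads in any library. Other listed interferon genes, among them Ifnb1, Ifna1 and Ifna4, had no entry by name in the table, and their level is not known here.

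Among the other sensors, Dhx58, a regulator of RIG-I and MDA5 also called LGP2, had 38.4 and 36.3 CPM in KO post-meiotic libraries, against 54.6 and 51.2 CPM in WT ones, and 40.8 and 37.3 CPM in KO meiotic libraries, against 59.4 and 62.5 CPM in WT ones. It fell by 0.50 ± 0.06 in post-meiotic (edgeR adjusted p = 6.45e-06) and by 0.65 ± 0.06 in meiotic cells (edgeR adjusted p = 2.35e-07) on the log2 scale. Nlrc5, an activator of MHC class I genes, fell by 0.91 ± 0.13 in post-meiotic (edgeR adjusted p = 7.63e-05) and by 0.95 ± 0.14 in meiotic cells (edgeR adjusted p = 0.000142). Prkra, the activator of the RNA-dependent kinase PKR, rose by 0.65 ± 0.07 in post-meiotic (edgeR adjusted p = 2.98e-06) and by 0.74 ± 0.07 in meiotic cells (edgeR adjusted p = 5.36e-07), and Nlrx1, a mitochondrial regulator of MAVS, by 1.31 ± 0.20 (5.36e-05) and 0.70 ± 0.18 (0.00539).

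Of the 25 adaptors and kinases tested, 5 rose and 1 fell in KO post-meiotic cells, and 4 rose and 1 fell in KO meiotic cells. Of all genes 12.4% rose and 11.6% fell in post-meiotic cells, and 8.98% and 8.55% in meiotic cells. Chuk, a kinase of the NF-κB pathway, rose by 0.60 ± 0.07 in post-meiotic and 0.42 ± 0.07 in meiotic cells (edgeR adjusted p = 3.02e-06 and 8.25e-05), and Tnfaip3, an inhibitor of that pathway also called A20, by 0.60 ± 0.12 and 0.91 ± 0.14 (0.000981 and 6.93e-05). Pcbp2, which promotes the turnover of MAVS, was the gene that fell in both, by 0.25 ± 0.05 in post-meiotic (0.000785) and 0.60 ± 0.05 in meiotic cells (5.09e-08). Of 18 transcription factors, Stat2, a subunit of the interferon-activated complex ISGF3, had 3.90 and 4.27 CPM in KO post-meiotic libraries, against 1.96 and 1.90 CPM in WT ones, and 9.59 and 9.14 CPM in KO meiotic libraries, against 4.56 and 4.00 CPM in WT ones. The groups did not overlap, and its log2 change was 1.08 ± 0.13 in post-meiotic (edgeR adjusted p = 5.25e-06) and 1.13 ± 0.11 in meiotic cells (edgeR adjusted p = 2.4e-07). Irf5 rose by 1.21 ± 0.24 (edgeR adjusted p = 0.000612) and Nfkb2 by 1.13 ± 0.21 (0.000419) in post-meiotic cells.

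Of 13 receptors and signalling parts tested, 4 were called higher and 0 lower in post-meiotic cells, with 8 at an unadjusted edgeR p under 0.05. In meiotic cells 0 were called, with 3 at an unadjusted edgeR p under 0.05. The difference of these effects was called for 0 of the 13, with 3 at an unadjusted edgeR p under 0.05. At that unadjusted limit were 46.4% of all genes in post-meiotic cells, 39.4% in meiotic cells and 24.1% for the difference. In KO post-meiotic cells Ifnar1, a chain of the type I interferon receptor, was higher by 0.32 ± 0.08 (edgeR adjusted p = 0.00412), and Socs3, an inhibitor of cytokine signalling, by 1.40 ± 0.29 (edgeR adjusted p = 0.000979). Of 48 other interferon-stimulated genes, 5 were called higher and 3 lower in post-meiotic, and 3 higher and 1 lower in meiotic cells. Beside both lists, 12.4% of all genes were called higher and 11.6% lower in post-meiotic, and 8.98% and 8.55% in meiotic cells. Oasl1, a regulator of Irf7 translation in mouse, had 3.16 and 3.10 CPM in KO post-meiotic libraries, against 1.17 and 1.81 CPM in WT ones (log2 1.08 ± 0.18, edgeR adjusted p = 0.000129), and 2.46 and 2.51 CPM in KO meiotic libraries, against 1.19 and 0.967 CPM in WT ones (1.20 ± 0.19, edgeR adjusted p = 7.36e-05). Cmpk2, a mitochondrial nucleotide kinase, had 4.12 and 4.13 CPM in KO post-meiotic libraries, against 9.51 and 8.48 CPM in WT ones, and fell by 1.13 ± 0.11 on the log2 scale (edgeR adjusted p = 5.12e-07). Isg20, an RNA exonuclease, fell by 0.51 ± 0.06 there (edgeR adjusted p = 2.93e-06).

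**Figure D4:**
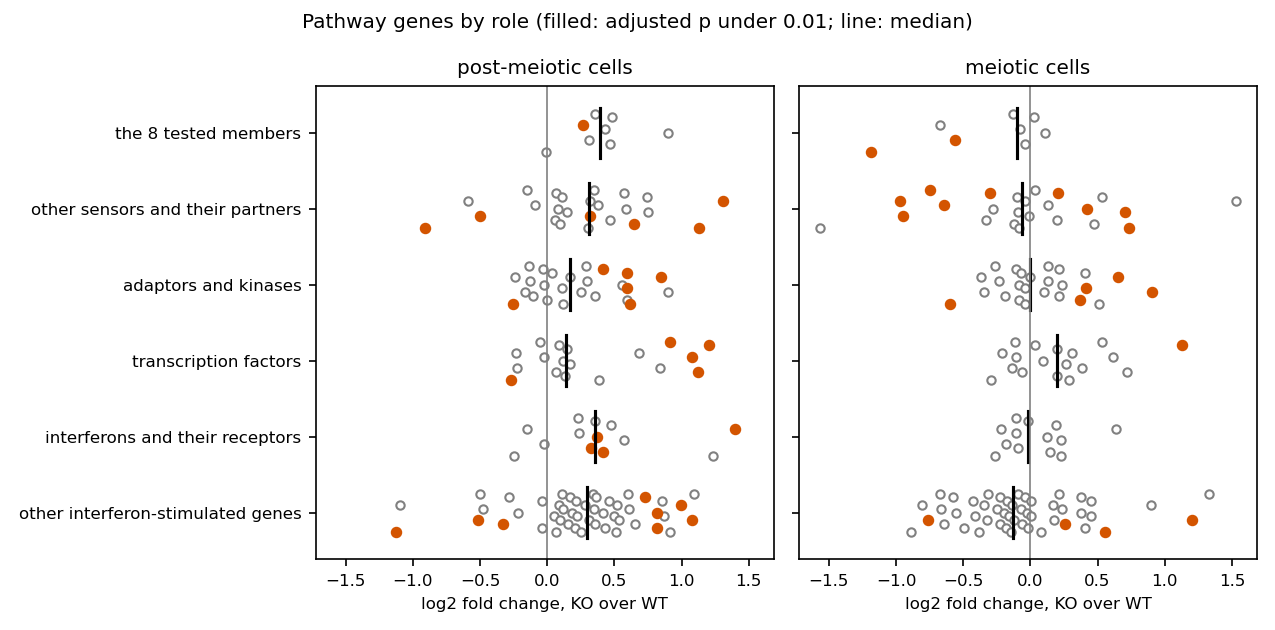
Log2 fold change of KO over WT (horizontal axis) for the 8 tested members and 128 further genes of the pathway, by role, in post-meiotic and in meiotic cells. Each point is a gene, filled where called, and the line is the median of the role; the members' line lies at 0.39 in post-meiotic and −0.10 in meiotic cells.

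Between the fractions, the pathway genes of all roles except adaptors and kinases and the receptors had a median above 0 in KO. In WT only the other interferon-stimulated genes did, with a median log2 difference of 0.195. Myd88, the adaptor of most Toll-like receptors, fell by 2.23 ± 0.10 in WT post-meiotic cells (edgeR adjusted p = 3.55e-14) and Tyk2, a receptor kinase, by 1.98 ± 0.09 (7.09e-14). Among other interferon-stimulated genes 25 of 48 were called higher after meiosis in KO and 10 of 48 in WT, with 2 and 4 called lower. The pathway genes of all roles had 49 called higher and 27 lower in KO, and 28 higher and 31 lower in WT. Of all genes, as above, 29.5% were higher and 31.5% lower in KO, and 29.6% and 32.4% in WT. Over all 128 pathway genes 49 were called higher after meiosis in KO, 30 without KO meiotic replicate 2 and 28 without KO post-meiotic replicate 1. The differences in these counts between KO and WT were not tested as such. Only 1 of the 48 other interferon-stimulated genes, Lgals3bp, was called for the difference itself (1.05 ± 0.21, edgeR adjusted p = 0.00512). Of the other pathway genes, Dhx9, an RNA helicase, and Pcbp2 were called for it, at 0.82 ± 0.12 (edgeR adjusted p = 0.00283) and 0.34 ± 0.07 (edgeR adjusted p = 0.00648).

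The repeat families, which include simple repeats and satellites beside retroelements, were counted apart and scaled to the total of repeat reads. Of 973 families tested, 2 were called higher in KO post-meiotic cells (0.206%) and 5 lower (0.514%), and 4 higher in KO meiotic cells (0.411%) and 13 lower (1.34%). A family was called where its adjusted p was under 0.01 and its log2 change past 0.5 in size. Scaled to the gene counts, 6 were higher and 1 lower in post-meiotic and 4 higher and 11 lower in meiotic cells. With TMM over the families these were 2 and 3 in post-meiotic and 6 and 4 in meiotic cells, and with DESeq2 2 and 2, and 2 and 7. The other 2 families higher in meiotic cells, named after their values were seen, were the simple repeat (TACTG)n and the satellite GSAT_MM. The families higher in both fractions were RLTR10B and RLTR10B2, long terminal repeats of endogenous retroviruses. RLTR10B had 156 and 146 reads per 1000000 repeat reads (RPM) in KO post-meiotic libraries, against 105 and 108 in WT ones, and 193 and 193 in KO meiotic libraries, against 109 and 104 in WT ones. The groups did not overlap, and the log2 change was 0.51 ± 0.07 in post-meiotic (edgeR adjusted p = 1.77e-10) and 0.86 ± 0.07 in meiotic cells (edgeR adjusted p = 1.26e-32). The post-meiotic value fell under the limit of 0.5 without KO post-meiotic replicate 1 (0.46) or WT post-meiotic replicate 1 (0.49). RLTR10B2 had 182 and 172 RPM in KO post-meiotic libraries, against 116 and 121 in WT ones, and 159 and 163 in KO meiotic libraries, against 110 and 105 in WT ones, with log2 changes of 0.58 ± 0.07 and 0.59 ± 0.07.

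The other families of the list of 35 moved less. In post-meiotic KO cells the list ran from −0.17 for RLTR4_Mm to 0.58 for RLTR10B2 with a median of 0.03, and in meiotic KO cells from −0.51 for RLTR4_Mm to 0.86 for RLTR10B with a median of −0.05. RLTR4_Mm was the only one of them called lower, in meiotic cells (edgeR adjusted p = 4.82e-12). Families outside the list were also called lower in meiotic cells, among them RLTR4_MM-int, MuRRS-int and RLTR9A2, named after their values were seen. RLTR4_MM-int had 582 and 595 RPM in KO meiotic libraries, against 968 and 807 in WT meiotic ones. There MuRRS-int had 139 and 143 against 235 and 210, and RLTR9A2 had 170 and 183 against 292 and 266. The internal part of IAP elements, IAPEz-int, differed by 0.04 ± 0.05 in post-meiotic and −0.10 ± 0.05 in meiotic cells, and L1Md_T, a young LINE-1 family, by 0.02 ± 0.05 and 0.03 ± 0.05. RLTR10B and RLTR10B2 rose in both fractions, and 13 of 973 families were called lower in KO meiotic and 5 in KO post-meiotic cells. Beside these, Ddx58 and Tlr3 were lower in KO meiotic cells and Irf3 was higher in KO post-meiotic cells. The other tested members were called in neither. With 4 groups of 2 libraries no relation between members and families was computed across libraries.

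**Figure D5:**
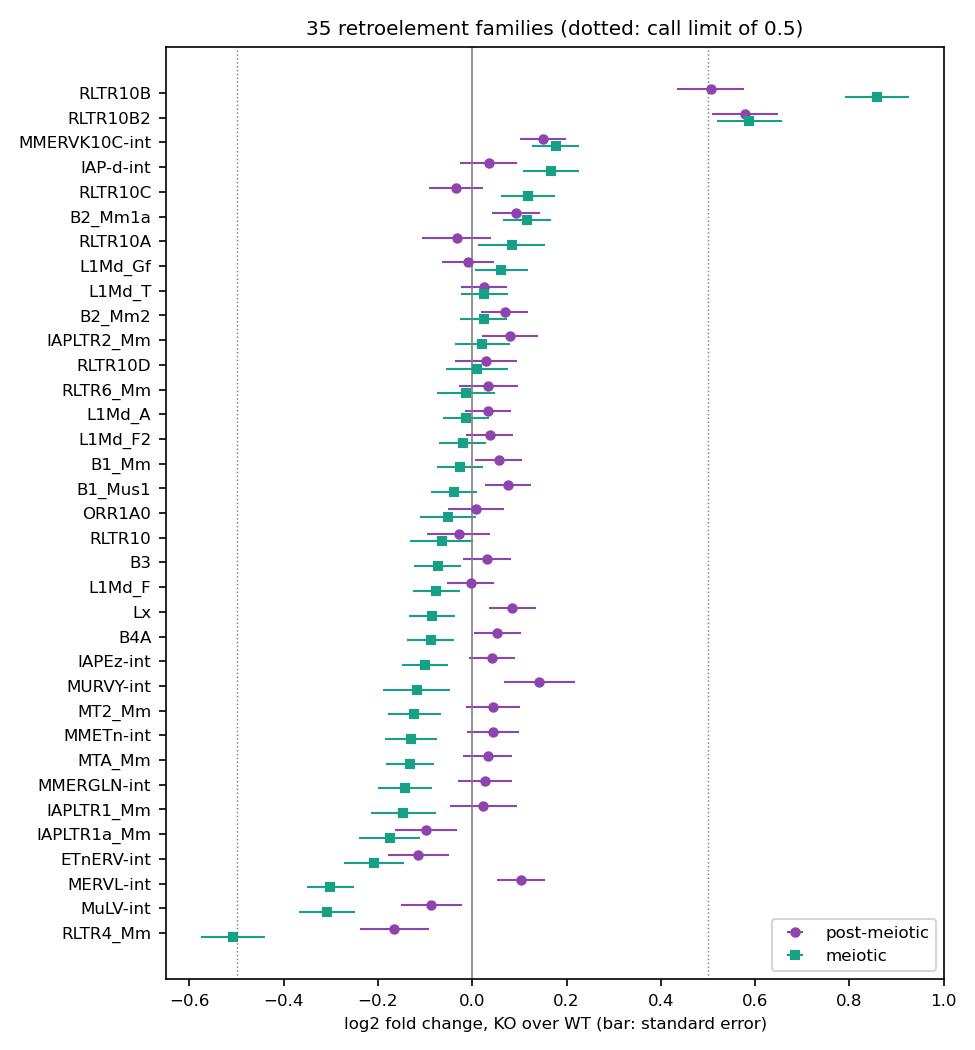
Log2 fold change of KO over WT (horizontal axis) for the 35 listed retroelement families in post-meiotic and meiotic cells, with standard errors and dotted lines at the call limit of 0.5. RLTR10B and RLTR10B2 lie above 0.5 in both fractions, and RLTR4_Mm lies at −0.51 in meiotic cells.

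The genes with the pattern most like each member were taken as the 2 with the smallest root mean square distance of centred log2 CPM over the 8 libraries, among 12417 or 12418 tested genes with a mean of at least 1 CPM and a symbol that is not that of a clone or a predicted gene. For Irf3 these were Tceb3 (0.0249) and Gpn3 (0.0409), for Mavs Mocs1 (0.0435) and Ankrd13d (0.0591), and for Ddx58 Fryl (0.0874) and Elovl1 (0.0877). Ifih1 was nearest to Ifngr1 (0.0720), a chain of the interferon gamma receptor, and Tubb5 (0.0736). The members with few reads had more distant neighbours: Ltbp3 (0.284) and Fzd1 (0.289) for Tlr3, Ptgis (0.217) and Itgb3 (0.219) for Irf7, Prss23 (0.202) and Serpinb9 (0.224) for Ifit1, and Tm4sf19 (0.171) and Clvs1 (0.218) for Ifit3. The root mean square of a member's own centred values was 1 for Irf3, 0.257 for Mavs, 0.337 for Ddx58 and 0.205 for Ifih1. It was 0.603 for Tlr3, 0.665 for Irf7, 0.516 for Ifit1 and 0.798 for Ifit3. A small distance thus means less for a member that varied little, such as Ifih1. The points share the 4 groups, so that the distances describe the pattern of the groups.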

How the data were processed

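Total RNA of KO and WT meiotic and post-meiotic mouse testis cells, 2 libraries per group, was sequenced by the authors as stranded single-end reads, aligned with TopHat2 2.0.14 (Bowtie2 2.1.0; build mm9; unique hits retained), and counted per gene with HTSeq 0.6.1. The deposited gene and repeat family tables hold raw counts, and these alone were used. Deposited log2 and p columns are the authors' own comparisons and were not used, nor was the piRNA cluster table. Whether same-numbered libraries of the fractions came from the same mouse is not given in the sources used here, and the main fit used no pairing. Its p-values measure the spread between libraries within groups, by an estimate that the 4 groups of 2 libraries share.

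Genes passed edgeR's expression filter (minimum count 10 at its default), were scaled by TMM, and were tested with edgeR 4.0.16 (R 4.3.3, limma 3.58.1) by quasi-likelihood over all 8 libraries and 4 groups; DESeq2 1.42.0 was an alternative. The standard error is the log2 change divided by the square root of F. Repeat families with a group mean of 5 or more RPM (relative to repeat totals, which also set their scale) entered the test. The analysis code was checked on simulated counts. RPKM used the exon length of the GENCODE annotation. Other alternatives were RLE factors, library totals, a fit with the block of replicate numbers, fits of just 4 libraries, no minimum count, other call limits, TMM or gene library sizes for repeats, and each library left out. Pathway genes were named by rule: up to 3 per role and direction by adjusted p in each KO comparison, and up to 3 per role between fractions; some are left out for length. The members and lists were chosen with earlier results of these data known.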

Additional observations from a re-analysis of the deposited data

Results flagged for a closer look

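The KO effect differed between the fractions for 2 members by the test of the difference itself. For Tlr3 the effect in post-meiotic minus that in meiotic cells was 2.09 on the log2 scale (edgeR adjusted p = 0.00491), on 12 to 45 reads in a library, and leaving out 1 library gave 1.89 to 2.42, with adjusted p from 0.00598 to 0.0367. For Ddx58 it was 0.92 (edgeR adjusted p = 0.00159), and leaving out 1 library gave 0.80 to 0.99, with adjusted p from 0.00214 to 0.0284. In both genes the KO libraries lay above the WT libraries in post-meiotic cells and below them in meiotic cells. Groups of 2 libraries allow no test for a single library that stands apart.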

How the results depend on the processing

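Of 545 values of the 40 member log2 changes under alternatives, 496 kept direction and call, 30 lost and 6 gained a call, and 13 changed sign, none of these called. In KO post-meiotic cells members called were 1, and 0 with RLE, with DESeq2 or beyond a log2 of 1, against 3 with library totals or at an adjusted p under 0.05; at an unadjusted p under 0.05 there were 5 with TMM, 4 with RLE and 2 with DESeq2. In KO meiotic cells they were 2, and 1 with DESeq2, with only the 4 libraries compared or beyond a log2 of 1. After meiosis they were 5 in KO, and 3 with DESeq2, and 3 in WT, with 1 beyond a log2 of 1 and 5 at an adjusted p under 0.05. For the difference of effects they were 2, and 1 beyond a log2 of 1 or with DESeq2, which gave Tlr3 no adjusted p. Leaving out 1 library gave 1 to 2 in KO meiotic, 0 to 1 in KO post-meiotic, 4 to 5 after meiosis in KO, 2 to 5 in WT and 0 to 2 for the difference, and 0.459 to 0.550 for RLTR10B in post-meiotic cells.

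With library totals the log2 change of Irf3 in meiotic cells was 0.0224 and that of Ifit1 in post-meiotic cells 0.0904. Leaving out 1 library changed signs within −0.103 to 0.00445 for Irf3, −0.150 to 0.217 for Ifih1, −0.493 to 0.434 for Irf7 and −0.785 to 0.909 for Ifit3 in meiotic cells, −0.0723 to 0.00869 for Ifit1 in post-meiotic cells, −0.100 to 0.0268 for Ddx58 and −0.0199 to 0.303 for Ifih1 after meiosis in KO, and −0.488 to 1.20 for Ifit3 in the difference. The cause was not tested.

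With the replicate number as a block the calls were 2, 1, 5, 3 and 2, the same members as without it. The replicate numbers are not known to pair libraries: deviations of same-numbered libraries correlated between groups at −0.0616 to 0.109 over genes. All genes called for the difference were 531, and 1251 with no filter and 32 to 498 without 1 library, the lowest without KO post-meiotic replicate 1. In KO meiotic cells 3578 were called and 2160 to 3482 without 1 library, and in KO post-meiotic cells 4905 and 2380 to 5181. Low reads limit Tlr3, Irf7, Ifit1, Ifit3 and Isg15.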
